A study of Homo sapiens with 18 samples.

Results

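The 6 genes described here encode the ISG15 conjugation system: ISG15, UBA7, UBE2L6, HERC5, HERC6 and USP18. They were chosen by name, for their known roles and with earlier results of these data known, from the 19784 genes in the deposited tables. All 6 were found and passed the filter on low values in both experiments. RNA was measured by poly(A) sequencing in 18 libraries of THP-1, a line of human monocytic leukaemia cells (acute myeloid leukaemia) with an MLL-AF9 fusion gene. The first experiment held unmodified THP-1 (wt), a derivative with added PHF8 and a derivative with the F279S form of PHF8 (n = 4 libraries each, no treatment named). The second held derivatives titled ERAA, ERDD and ERPHF8, whose genotypes are given as PHF8AA, PHF8DD and PHF8 (n = 2 libraries each, day 3). ERAA and ERDD carry a label for 4-hydroxytamoxifen (4-OHT), used at 100 nM for induction, and ERPHF8 carries no treatment label. Each difference from ERPHF8 therefore cannot be told apart from one with and without that label. PHF8 is a histone demethylase, F279S is its form without activity as an enzyme, and the series asks how PHF8 bears on the type I interferon response. The meaning of ER, AA and DD, the vector, its promoter and whether a derivative is a clone are not given in the labels. Nothing in them says that libraries of a group came from separate cultures, so p-values measure only the spread between these libraries.

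ISG15 is a small ubiquitin-like protein that is made in response to interferon and joined to lysines of other proteins. As with ubiquitin, an activating enzyme (E1), a conjugating enzyme (E2) and a ligase (E3) pass it on in turn. UBA7 is its E1, UBE2L6 its E2 and HERC5 its main E3 in human cells, while HERC6 is a neighbouring relative of HERC5 and serves as the main ISG15 ligase in mouse. USP18 removes ISG15 from its targets and, apart from that, binds the type I interferon receptor and damps its signal. In monocytes all 6 are known as interferon-stimulated genes.

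The deposited coordinates (hg38) put ISG15 at chr1:1001138-1014541 on the plus strand, UBA7 at chr3:49805207-49813946 on the minus strand and UBE2L6 at chr11:57551656-57568284 on the minus strand. HERC6 (chr4:88378739-88443111) and HERC5 (chr4:88457117-88506163) lie side by side on the plus strand, with 14.0 kb between them, and USP18 is at chr22:18149899-18177397 on the plus strand. The deposited values follow from reads over each full span, introns included. No member overlaps another gene of the table, but in GENCODE v29 the ISG15 span also holds an antisense gene and a processed pseudogene, whose reads cannot be told apart from its own. USP41, a near-identical copy of USP18, stood at 0.269 to 0.684 CPM in the group means (CPM, reads of a gene per 1e6 reads of the library). The split of reads between the pair is uncertain.

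Interferon acts on such genes through the ISRE, a DNA element bound by interferon-activated factors, so the stretches upstream of the modifier and of the neighbouring ligases are shown to compare them. They come from RefSeq (GRCh38.p14), which gave windows of 250 bases before to 50 after a start for 4 of the 6 genes (5 windows; UBA7 and USP18 had none). Each is printed 5′ to 3′ on the plus strand, and ends before the first base that GENCODE v29 places in an exon. ISG15 is chr1:1013247-1013422 (176 bases, inside the deposited span), HERC5 is chr4:88456869-88457116 (248 bases) and HERC6 is chr4:88378602-88378738 (137 bases). Capitals mark matches to the ISRE core GAAANNGAAA, or TTTCNNTTTC where it lies on the other strand.
ISG15: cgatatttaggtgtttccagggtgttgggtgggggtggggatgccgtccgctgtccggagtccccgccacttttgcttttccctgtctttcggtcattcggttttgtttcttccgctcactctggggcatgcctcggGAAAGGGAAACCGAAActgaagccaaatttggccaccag
HERC5: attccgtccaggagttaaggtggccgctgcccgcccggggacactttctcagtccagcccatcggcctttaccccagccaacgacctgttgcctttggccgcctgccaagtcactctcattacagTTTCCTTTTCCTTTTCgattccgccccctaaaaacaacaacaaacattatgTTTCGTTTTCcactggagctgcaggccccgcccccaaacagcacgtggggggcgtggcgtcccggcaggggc
HERC6: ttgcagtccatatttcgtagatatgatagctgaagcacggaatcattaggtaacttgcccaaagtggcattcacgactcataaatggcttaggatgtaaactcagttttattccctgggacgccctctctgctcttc
The ISG15 window held 2 overlapping matches, at 113 to 104 and 107 to 98 bases before the RefSeq start. The HERC5 window held 3 on the other strand, an overlapping pair at 125 to 116 and 119 to 110 bases and another at 74 to 65. HERC6 and the pair of UBE2L6 windows held 0. Both UBE2L6 windows lie inside the deposited span, and all 250 of their bases before the RefSeq start fall in GENCODE v29 exons. The stretch upstream of the UBE2L6 span was therefore not searched. In the HERC6 window, 113 of the 250 bases before the start fall in an exon. Over all 35116 RefSeq windows of 300 bases, 3.57% held the core at least once and 0.259% at least 2 times. The GAS letters TTCNNNGAA, which read the same on either strand, were in 0 of the 5 windows and in 7.66% of all. A match shows only that these letters are present.

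Library totals ran from 18.2 to 51.5 M reads in the first experiment and from 40.6 to 41.3 M in the second. The varied gene, PHF8, had a mean level of 50.6 ± 3.99 CPM in wt, against 2020 ± 89.6 CPM in PHF8 and 5381 ± 320 CPM in F279S (SD, n = 4 each). The ER lines had 2150 ± 219 CPM (ERAA), 1109 ± 14.8 CPM (ERDD) and 1906 ± 8.51 CPM (ERPHF8; SD, n = 2 each). ERDD thus held less PHF8 RNA than ERAA (log2 change -0.95, limma adjusted p = 9.2e-06). Of 10 monocyte and myeloid markers, 9 stood above 1 CPM in all 18 libraries and FCN1 did in none. Of 7 markers of other lineages, CD3E, MS4A1 and EPCAM stayed below 1 CPM in all of them.

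Among the ER lines, RNA of the conjugation system stood in the order ERAA, ERPHF8, ERDD for 5 of its 6 genes, and the E1 gene UBA7 departed from it. All 6 genes were higher in ERDD than in ERAA. Read with limma over all 13831 genes tested (Benjamini-Hochberg adjusted p below 0.05), 68.1% of genes were called changed in that comparison and 34.8% were called higher. The members' median log2 change was 2.36, beside -0.00086 over all genes tested. Changes are on the log2(CPM + 0.5) scale. The summed CPM of the other-lineage markers was 636 to 644 in ERDD, 409 to 413 in ERAA and 428 to 431 in ERPHF8. Nearly all of it was PECAM1 (618 to 626, 390.0 to 394 and 416 to 418 CPM), named after its values were seen. PECAM1 stood above 10 CPM in all 18 libraries, with 286 to 385 CPM in unmodified THP-1, so it cannot serve here as a marker of another lineage. The other 6 markers summed to at most 17.9, 19.2 and 13.5 CPM in a library of ERDD, ERAA and ERPHF8. The sum of the myeloid markers was 2470 to 2508, 3641 to 3738 and 2463 to 2472. Their part in the results below was not tested.

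**Figure D1:**
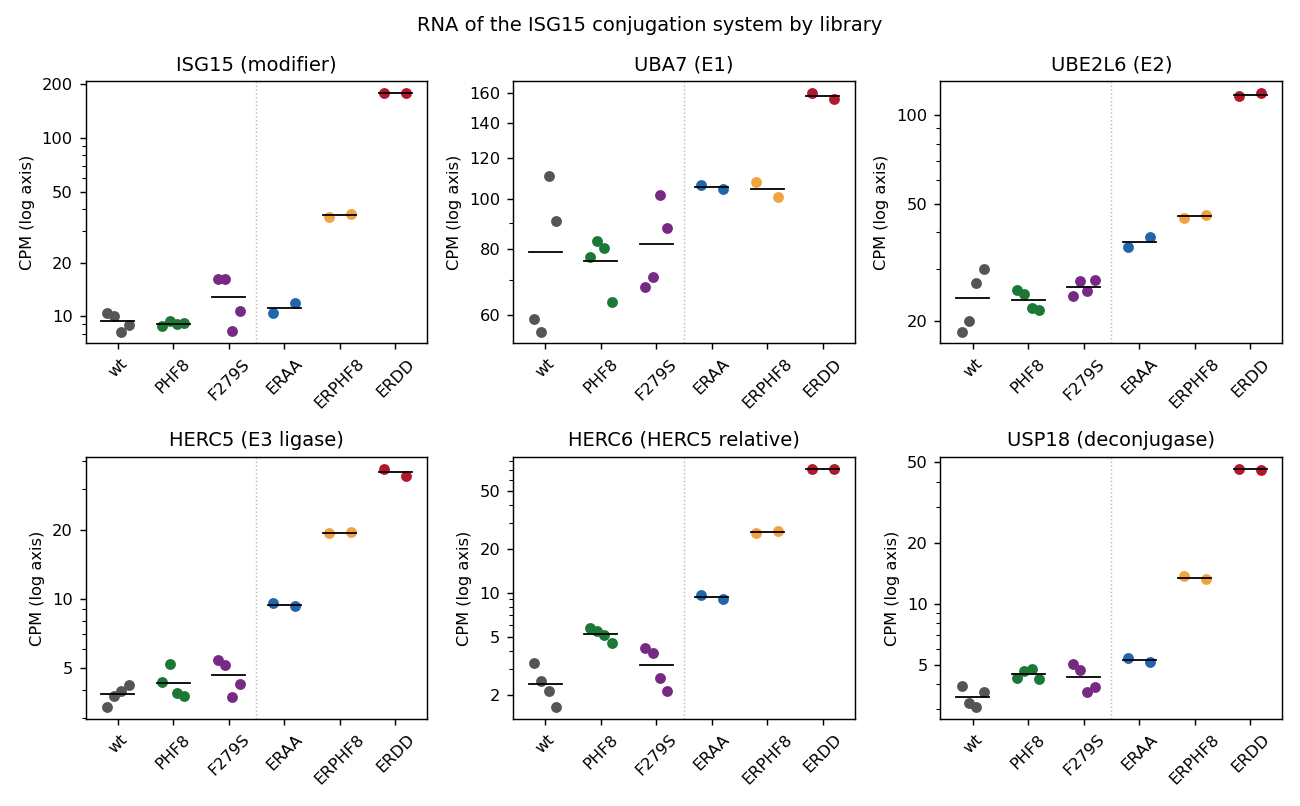
RNA of the 6 genes in each of the 18 libraries, in CPM on log axes; each point is a library, each bar the mean of its group, and the dotted line separates the first experiment (left) from the second. Both ERDD libraries lie above every other library for all 6 genes, and ERPHF8 lies between ERAA and ERDD for every gene but UBA7.

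The modifier gene had the largest change of the 6. ISG15 stood at 10.4 and 11.9 CPM in the ERAA libraries, at 36.1 and 37.5 CPM in ERPHF8 and at 178 and 179 CPM in ERDD. The 3 lines did not overlap, and libraries of a line lay close together. From ERAA to ERDD the mean rose 16.1-fold, a log2 change of 3.95 ± 0.07 (SE, adjusted p = 9.6e-09). Only 0.0434% of genes tested had a larger rise, which placed ISG15 at rank 7. ERPHF8 exceeded ERAA by 1.68 ± 0.07 (4.6e-06), and ERDD exceeded ERPHF8 by 2.27 ± 0.07 (6.7e-07). These 3 comparisons share libraries and are not independent of each other.

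The activating enzyme moved least. UBA7, which charges ISG15 at the expense of ATP, stood at 106 and 104 CPM in ERAA, 108 and 101 CPM in ERPHF8 and 160 and 155 CPM in ERDD. ERDD lay above the other lines, while ERAA and ERPHF8 overlapped. UBA7 rose 1.50-fold from ERAA to ERDD, a log2 change of 0.58 ± 0.05 (adjusted p = 1.6e-05), and ERDD also exceeded ERPHF8, by 0.59 ± 0.05 (5.6e-05). Between ERPHF8 and ERAA the change was -0.01 ± 0.05 and was not called (0.80), with a 95% interval from -0.12 to 0.09. Larger rises from ERAA to ERDD than that of UBA7 were seen in 9.59% of genes tested.

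The conjugating enzyme took a middle place. UBE2L6, which receives ISG15 from UBA7 and can also carry ubiquitin, stood at 35.8 and 38.7 CPM in ERAA, 44.8 and 45.9 CPM in ERPHF8 and 116 and 119 CPM in ERDD. The lines did not overlap, but ERAA and ERPHF8 were near each other. UBE2L6 rose 3.15-fold from ERAA to ERDD (1.64 ± 0.05, adjusted p = 1.8e-07) and by 0.28 ± 0.05 from ERAA to ERPHF8 (0.0026). ERDD exceeded ERPHF8 by 1.36 ± 0.05 (1.5e-06).

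The neighbouring ligase genes rose by unequal amounts. HERC5, a HECT-type ligase that works at ribosomes on newly made proteins, stood at 9.56 and 9.29 CPM in ERAA, 19.3 and 19.5 CPM in ERPHF8 and 37.0 and 34.4 CPM in ERDD. HERC6 stood at 9.66 and 9.09 CPM in ERAA, 25.6 and 26.7 CPM in ERPHF8 and 71.3 and 71.3 CPM in ERDD. CPM takes no account of length, and per kb of exon HERC6 (1.62) was below HERC5 (1.98) in ERAA. For both genes the lines did not overlap. From ERAA to ERDD, HERC5 rose 3.79-fold (1.87 ± 0.06, adjusted p = 2.4e-07) and HERC6 7.60-fold (2.86 ± 0.06, 1.7e-08). From ERAA to ERPHF8 the changes were 1.01 ± 0.06 for HERC5 (2.1e-05) and 1.43 ± 0.06 for HERC6 (4.6e-06). From ERPHF8 to ERDD they were 0.86 ± 0.06 for HERC5 (4.3e-05) and 1.43 ± 0.06 for HERC6 (1.9e-06). The number of HERC5 reads per HERC6 read was 0.990 to 1.02 in ERAA, 0.733 to 0.755 in ERPHF8 and 0.483 to 0.518 in ERDD. It did not overlap between the ER lines. In the first experiment it was 1.02 to 2.56 in wt, 0.752 to 0.947 in PHF8 and 1.30 to 2.01 in F279S. The ratio is given as a description with no test.

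The deconjugase gene had the second largest rise from ERAA to ERDD. USP18 stood at 5.36 and 5.12 CPM in ERAA, 13.6 and 13.2 CPM in ERPHF8 and 46.4 and 46.0 CPM in ERDD, with no overlap between lines. It rose 8.82-fold from ERAA to ERDD (3.02 ± 0.06, adjusted p = 2.1e-08). ERPHF8 exceeded ERAA by 1.28 ± 0.06 (9.2e-06) and ERDD exceeded ERPHF8 by 1.75 ± 0.06 (1.2e-06). The number of ISG15 reads per USP18 read was 1.94 to 2.32 in ERAA, 2.65 to 2.84 in ERPHF8 and 3.85 to 3.90 in ERDD. The ratio of the modifier's reads to those of its deconjugase was thus highest in both ERDD libraries.

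In all, 6 of 6 genes were called higher in ERDD than in ERAA, and 6 of 6 in ERDD than in ERPHF8, where 24.8% of all genes tested were called higher and 52.8% in either direction. In ERPHF8 against ERAA 5 of 6 were called higher, where 29.7% of all genes were called higher and 53.8% in either direction. The members' medians were 1.40 for ERDD against ERPHF8 and 1.14 for ERPHF8 against ERAA, beside -0.02 and 0.04 over all genes. Scaling by the upper quartile in place of the library total changed how all genes split. For ERDD against ERAA it gave 3803 genes called higher and 5786 lower in place of 4807 and 4608, and for ERPHF8 against ERAA 3020 and 4420 in place of 4103 and 3333. The members' counts were 6 and 5 under either scaling. Libraries did not overlap, with the first line higher, for 6, 5 and 6 members in ERDD against ERAA, ERPHF8 against ERAA and ERDD against ERPHF8. Over all genes this held for 42.1, 41.9 and 39% of those tested.

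**Figure D2:**
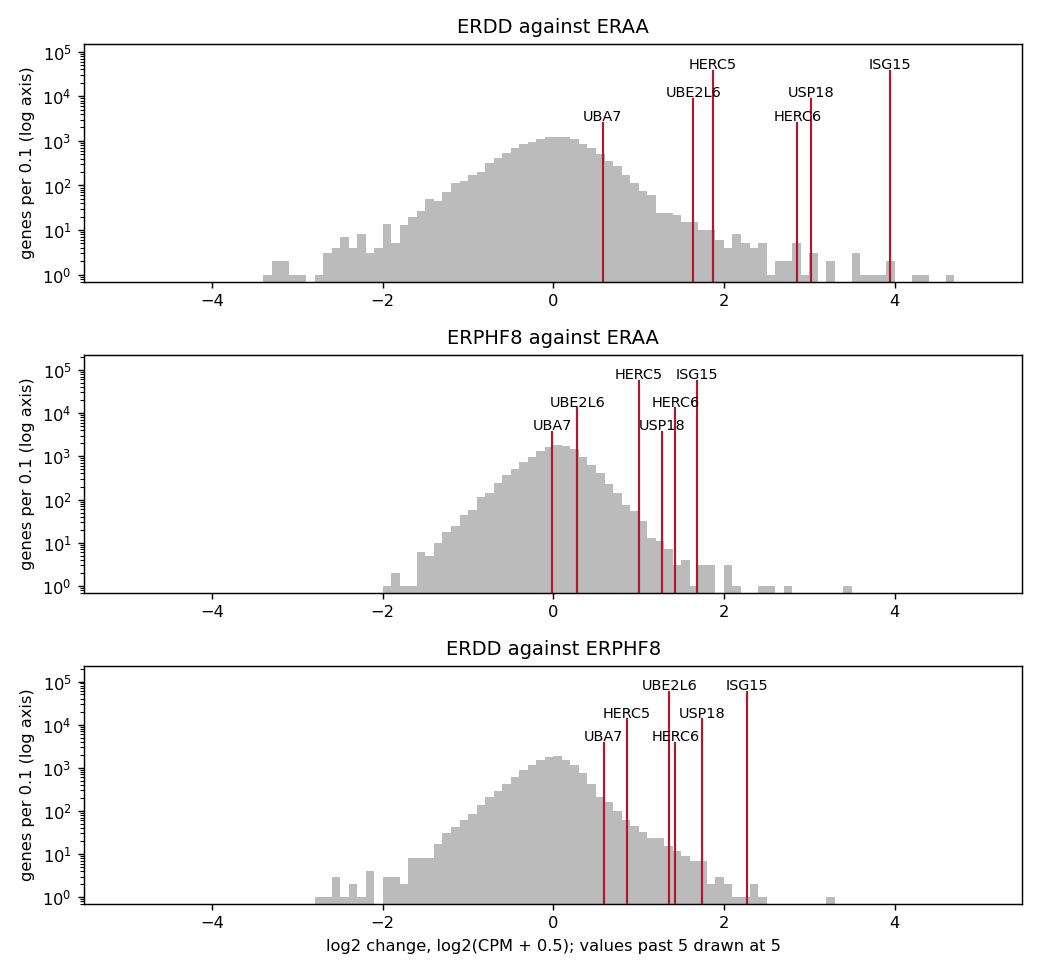
Histograms of the log2 change of all 13831 genes tested, on the log2(CPM + 0.5) scale, in bins of 0.1 with a log count axis, for the 3 comparisons of ER lines; red lines mark the 6 genes. UBA7 lies within the main body of each histogram, and ISG15 (3.95, 1.68 and 2.27) lies furthest to the right of the 6 in each.

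In the first experiment the counts of members called were near the shares over all genes. In PHF8 against wt, limma called 1 of 6 members, HERC6, over 13683 genes tested, of which 21% were called in either direction and 12.7% higher. HERC6 stood at 3.30, 2.47, 2.11 and 1.64 CPM in the wt libraries and at 5.73, 5.47, 5.11 and 4.49 CPM in PHF8. All PHF8 libraries were above all wt libraries. The mean rose 2.18-fold, a log2 change of 1.01 ± 0.21 (SE, adjusted p = 0.0051). The call held without any 1 library, with changes from 0.88 to 1.16. Larger rises were seen in 2.65% of genes tested. These levels rest on 34 to 89 reads per wt library and 113 to 257 reads per PHF8 library.

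USP18 fell just short of the threshold in the same comparison. It stood at 3.91, 3.25, 3.08 and 3.66 CPM in wt and at 4.31, 4.65, 4.75 and 4.24 CPM in PHF8, so that the groups did not overlap. Of all genes tested, 26.2% did not overlap between these lines. The log2 change was 0.33 ± 0.12 (adjusted p = 0.069). With the replicate number as a block its adjusted p was 0.031, in a fit that called 41.4% of all genes in place of 21%. With libraries 1 and 2 and libraries 3 and 4 averaged within each line, and the pair as a block, it was 0.22 (chosen after seeing the data). ISG15 (-0.04 ± 0.18, adjusted p = 0.92), UBA7 (-0.0033 ± 0.21, 0.99), UBE2L6 (0.01 ± 0.14, 0.99) and HERC5 (0.14 ± 0.14, 0.55) were not called, and their groups overlapped. The 95% interval for ISG15 ran from -0.44 to 0.36.

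In F279S against wt 0 of 6 members were called, and 2 of all 13683 genes (0.0146%). At an unadjusted p below 0.05 limma gave 871 genes, and with voom weights it called 2. USP18 had the lowest adjusted p of the members (0.74, log2 change 0.27 ± 0.12). ISG15 stood at 16.2, 16.3, 8.28 and 10.7 CPM in F279S and at 10.5, 10.1, 8.21 and 8.90 CPM in wt. The higher pair of F279S libraries lay above all wt libraries, while the lower pair lay within or near their range. The change of 0.38 ± 0.18 was not called (adjusted p = 0.80). HERC6 stood at 4.15, 3.84, 2.59 and 2.12 CPM in F279S, again with a higher and a lower pair (0.34 ± 0.21, 0.90). All 6 estimates were above 0, with a median of 0.26, and for all 6 the libraries of the lines overlapped.

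Between PHF8 and F279S, 1 of 6 members was called, in a comparison where 20.1% of genes were called and 12.2% were called higher. HERC6 was higher in PHF8 by 0.67 ± 0.21 (adjusted p = 0.044). The call was lost without any 1 of PHF8 libraries 1, 2, 3 and 4 (0.62, 0.64, 0.67 and 0.73) and without F279S library 3 or 4 (0.60 and 0.52). ISG15 lay between 8.77 and 9.41 CPM in the 4 PHF8 libraries, close together and within the range of F279S. Its change of -0.42 ± 0.18 was not called (0.13). With the pairs averaged its adjusted p was 0.21. It was called with the replicate number as a block (adjusted p = 0.033, in a fit that called 41.1% of all genes) and without F279S library 3 (-0.61, 0.014). The other members changed by -0.15 to 0.06 and were not called.

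**Figure D3:**
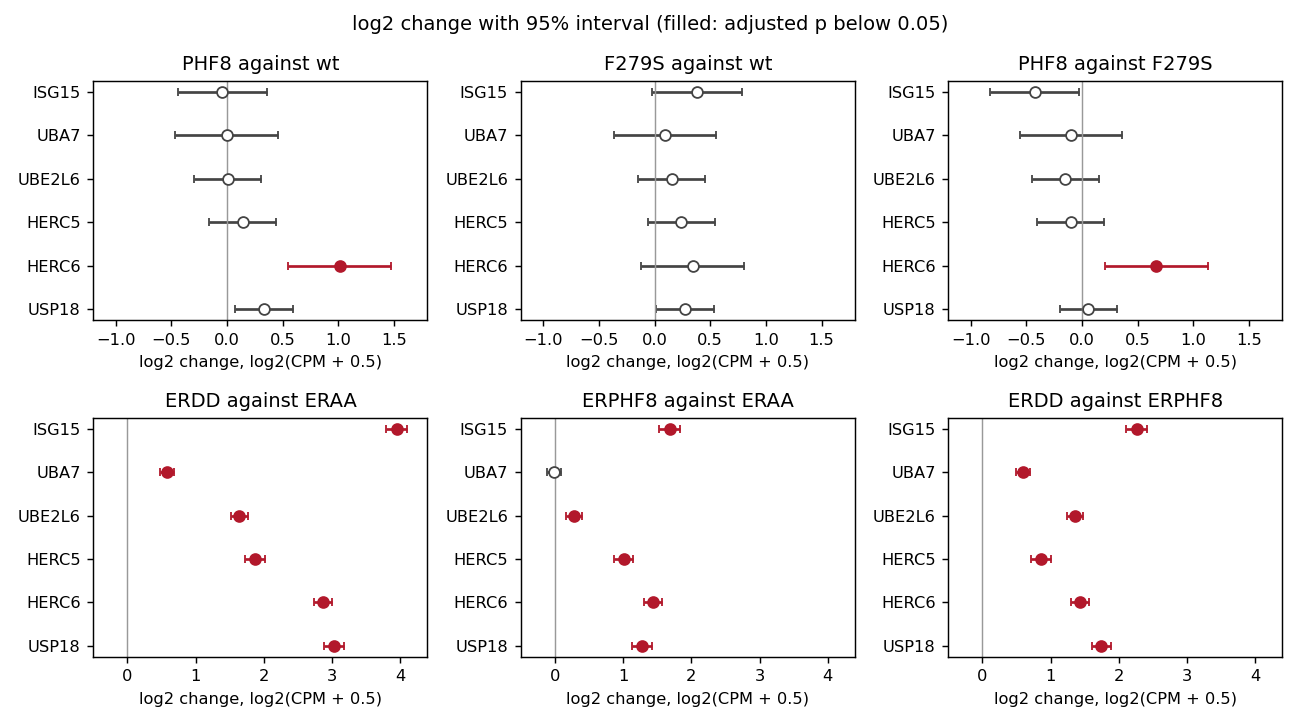
log2 changes of the 6 genes with 95% intervals in the 6 comparisons, on the log2(CPM + 0.5) scale; filled red points have an adjusted p below 0.05 and the upper and lower rows have different axes. All 6 points are filled in ERDD against ERAA (0.58 to 3.95), and HERC6 is the filled point in PHF8 against wt (1.01) and in PHF8 against F279S (0.67).

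Within each line of the first experiment, libraries 1 and 2 differed from libraries 3 and 4, and some members followed this split. Libraries 1 and 2 held 18.2 to 24.3 M reads and libraries 3 and 4 held 20.8 to 51.5 M; the labels name no batch. Between the pairs, limma called 60.4% of all genes in wt, 57.7% in F279S and 27.1% in PHF8. In wt, UBA7 was at 58.8 and 55.6 CPM in libraries 1 and 2 and at 111 and 90.8 CPM in libraries 3 and 4, a log2 difference of 0.81 (adjusted p = 5.9e-05). UBE2L6 in wt was at 18.5 and 20.1 CPM against 27.1 and 30.1 CPM (0.55, 9.9e-05). HERC6 in wt went the other way (-0.51, 0.013). In F279S, the later-numbered pair was lower for ISG15 (-0.76, 9.5e-05), HERC6 (-0.66, 0.0031), HERC5 (-0.37, 0.022) and USP18 (-0.33, 0.043), and higher for UBA7 (0.45, 0.0045). In PHF8 libraries 0 of the 6 genes were called between the pairs, with differences from -0.28 to 0.0040.

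The comparisons of lines were therefore also estimated within each pair. A test of the difference between pairs (an interaction term in limma) called UBA7 and UBE2L6 in PHF8 against wt and ISG15 and UBA7 in PHF8 against F279S, where it called 30.5 and 21.8% of all genes, and 0 members in F279S against wt (0.899%). PHF8 against wt gave 0.48 and then -0.49 for UBA7, and 0.37 and then -0.36 for UBE2L6, for libraries 1 and 2 and libraries 3 and 4. HERC6 gave 0.86 and 1.16 and USP18 0.29 and 0.37, so that both were on the higher side in PHF8 in each pair. PHF8 against F279S gave -0.80 and -0.04 for ISG15, and 0.44 and 0.90 for HERC6. F279S against wt gave 0.63 and 0.13 for ISG15 and 0.51 and -0.03 for HERC5. Taken alone, libraries 1 and 2 gave 4 members called higher in F279S than in wt (ISG15, UBA7, UBE2L6 and HERC5), in a fit that called 14.2% of all genes. Libraries 3 and 4 alone gave 0 members and 0.0877% of all genes. What lies behind the split was not tested.

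**Figure D4:**
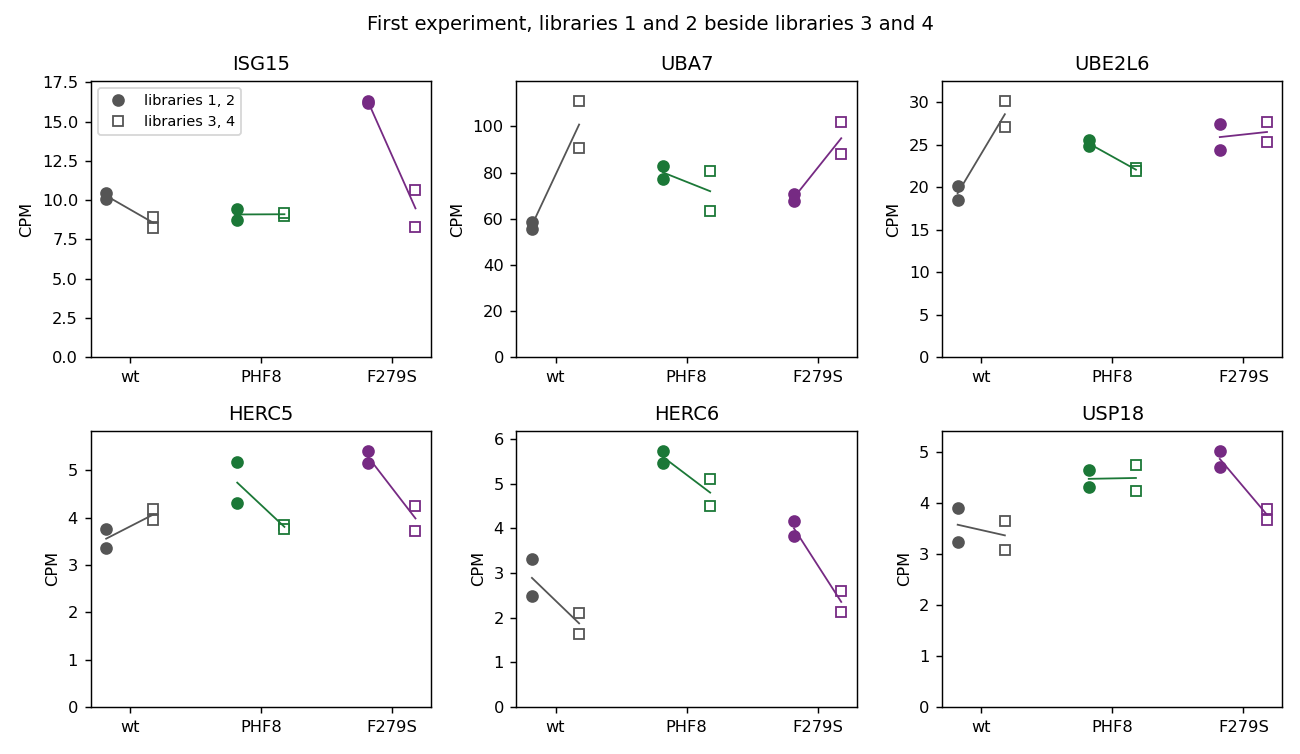
CPM of the 6 genes in the libraries of the first experiment, on linear axes from 0; filled circles are libraries 1 and 2, open squares libraries 3 and 4, and each line joins the means of the pairs. UBA7 and UBE2L6 rise from the first pair to the second in wt (UBA7 57.2 to 101 CPM) and not in PHF8, and ISG15 falls in F279S (16.2 to 9.48 CPM).

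The relative amounts of the 6 RNAs were compared as CPM per kb of merged exon, since spans and exon lengths differ (ISG15 has 0.941 kb of exon in a span of 13.4 kb). This is a level, and it is approximate, because intronic reads are included in the deposited values. In ERAA, UBA7 (23.2 ± 0.322, SD, n = 2) led UBE2L6 (16.9 ± 0.933) and ISG15 (11.8 ± 1.14). In ERPHF8, ISG15 (39.1 ± 1.06) led UBA7 (23.0 ± 1.03) and UBE2L6 (20.6 ± 0.365). In ERDD, ISG15 (190.0 ± 0.437) led UBE2L6 (53.3 ± 0.981) and UBA7 (34.7 ± 0.682). Among the ER lines the modifier's RNA therefore passed that of both its E1 and its E2, and in ERDD the E2 also passed the E1. USP18, HERC5 and HERC6 were the lowest 3 in every line, at 0.411 to 21.7 on this scale. In wt, UBA7 (17.4 ± 5.83, SD, n = 4), UBE2L6 (10.9 ± 2.52) and ISG15 (10.0 ± 1.11) came first, and the latter pair differed by less than their spread. In F279S, UBA7 (18.1 ± 3.49, SD, n = 4) led ISG15 (13.7 ± 4.27) and UBE2L6 (11.9 ± 0.737). There ISG15 and UBE2L6 differed by less than the spread of ISG15.

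**Figure D5:**
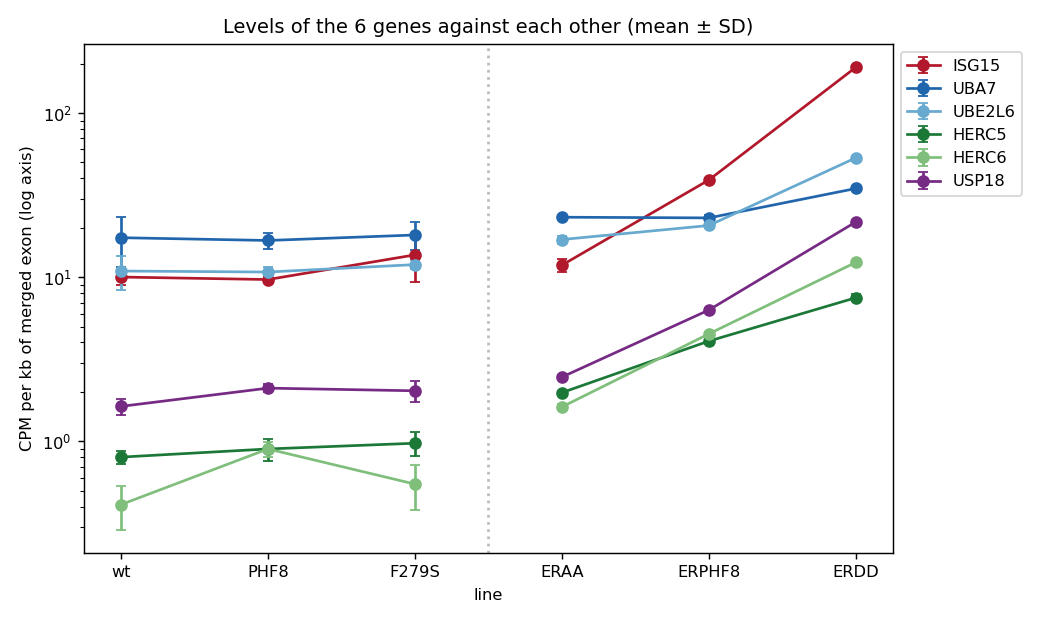
Level of each gene in CPM per kb of merged exon, mean ± SD (n = 4 libraries in wt, PHF8 and F279S, n = 2 in the ER lines), on a log axis; lines join the groups of an experiment. ISG15 lies below UBA7 and UBE2L6 in ERAA (11.8) and above all others in ERPHF8 (39.1) and ERDD (190.0), and HERC6 passes HERC5 between ERAA and ERPHF8.

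Over all 6 groups, the highest and lowest group means differed 29.9-fold for HERC6, 19.7-fold for ISG15, 13.3-fold for USP18, 9.36-fold for HERC5, 4.97-fold for UBE2L6 and 2.07-fold for UBA7. ERDD was the highest group for each. The lowest was PHF8 for ISG15, UBA7 and UBE2L6 and wt for HERC5, HERC6 and USP18. Neighbours in the order of levels overlapped among wt, PHF8 and F279S, except that PHF8 lay above F279S for HERC6. ERAA overlapped wt and F279S for ISG15. For UBA7, ERPHF8 overlapped both F279S and ERAA, and wt, at 55.6 to 111 CPM, overlapped both ERAA and ERPHF8. UBE2L6, HERC5, HERC6 and USP18 in ERAA lay above every library of the first experiment, a comparison of separate experiments that was not tested. The number of UBE2L6 reads per UBA7 read was 0.724 to 0.764 in ERDD, 0.416 to 0.454 in ERPHF8, 0.336 to 0.371 in ERAA and 0.244 to 0.388 in the first experiment.

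A receptor and factors that carry the type I interferon signal were listed beside the system: IFNAR1, IFNAR2, JAK1, TYK2, STAT2 and IRF9. In ERDD against ERAA 2 of 6 rose and 3 fell, with a list median of -0.12, where 34.8% of all genes tested rose and 33.3% fell. IRF9, a DNA-binding factor of the interferon response, went from 30.2 ± 2.05 to 77.5 ± 0.0850 CPM (SD, n = 2 each; log2 change 1.35 ± 0.06, adjusted p = 7.2e-07). IFNAR1, a receptor chain, went from 109 ± 3.04 to 91.1 ± 1.42 CPM (-0.25 ± 0.04, 0.00096). The other riser was STAT2 (0.58), named after its value was seen. In ERPHF8 against ERAA 2 rose and 3 fell, among them IRF9 (0.68) and the receptor kinase TYK2 (-0.25), with a median of -0.08, beside 29.7% and 24.1% of all genes. In ERDD against ERPHF8 3 rose and 0 fell (IRF9 0.67, median 0.06), beside 24.8% and 28% of all genes. The shares of the list that rose in the comparisons with ERAA were near those of all genes. In each comparison of the first experiment 0 of 6 were called.

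Of 10 other enzymes reported to attach or remove ISG15, 9 could be tested, all but USP41. In ERDD against ERAA 4 rose and 1 fell (34.8% and 33.3% of all genes), with a median of 0.07. TRIM25, a ligase that ISG15 and ubiquitin share, rose from 192 ± 12.2 to 329 ± 3.17 CPM (0.78 ± 0.05, adjusted p = 5.3e-06), and the protease USP21 fell (-0.16). In ERPHF8 against ERAA 4 rose and 1 fell (USP14 0.32 and USP2 -0.32, median 0.16; 29.7% and 24.1% of all genes), and in ERDD against ERPHF8 3 rose and 2 fell (TRIM25 0.50 and USP21 -0.19, median 0.01; 24.8% and 28% of all genes). In PHF8 against wt 2 rose and 1 fell, beside 12.7% and 8.28% of all genes. UBE2E2, an E2, rose by 0.32 and USP2, a deubiquitinase, fell by 0.48 on the log2 scale (median 0.16). In PHF8 against F279S 0 rose and 2 fell (USP2 -0.47, median 0.15), beside 12.2% and 7.92% of all genes, and in F279S against wt 0 were called.

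Relatives of the members in ubiquitin conjugation (UBA1, UBA6, UBE2L3 and HERC1 to HERC4) were all tested. In ERDD against ERAA 3 of 7 rose and 0 fell (34.8% and 33.3% of all genes), with a median of 0.14. UBA1, the E1 of ubiquitin, rose from 329 ± 12.9 to 481 ± 13.7 CPM (0.55 ± 0.04, adjusted p = 1.8e-05), beside 0.58 ± 0.05 for UBA7. In ERPHF8 against ERAA 6 rose and 0 fell (UBA1 0.28, median 0.28), beside 29.7% and 24.1% of all genes. In ERDD against ERPHF8 2 rose and 3 fell (UBA1 0.27 and HERC2 -0.41, median -0.07), beside 24.8% and 28% of all genes. In PHF8 against wt 1 rose, UBA6 (0.27), where 12.7% of all genes did, and the other comparisons of the first experiment gave 0. Of 9 other ubiquitin-like modifiers 8 were tested, all but UBD. In ERDD against ERAA 2 rose and 3 fell (URM1 0.22 and UFM1 -0.43), in ERPHF8 against ERAA 0 rose and 2 fell (UFM1 -0.35), and in ERDD against ERPHF8 2 rose and 1 fell (SUMO3 0.17 and ATG12 -0.31). The shares of all genes that rose and fell in these comparisons were 34.8 and 33.3%, 29.7 and 24.1%, and 24.8 and 28%. The medians of the 8 modifiers were -0.12, -0.03 and 0.01, and 0 were called in the first experiment. Among those named the largest change was -0.43, for UFM1 in ERDD against ERAA, where ISG15 changed by 3.95.

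Among themselves, the members were compared by the root mean square difference of their log2 group means over the 6 groups, each centred on its own experiment. UBE2L6 and HERC5 were the closest pair (0.22), followed by HERC6 and USP18 (0.23), and ISG15 and UBA7 were the farthest apart (0.98). Of 13497 other genes compared, all tested in both experiments, those nearest to the members' mean profile were IFIT2 (0.09), IRF7 (0.09), HELZ2 (0.09), MT2A (0.10), IFITM3 (0.11), PARP14 (0.12), OASL (0.13) and LAP3 (0.14). IFIT2, an antiviral protein that binds RNA, had a mean of 18.3 ± 0.810 CPM in ERAA, 36.9 ± 1.57 CPM in ERPHF8 and 99.3 ± 2.69 CPM in ERDD (SD, n = 2 each). IRF7, a transcription factor of the interferon genes, had means of 25.0 ± 0.875 CPM, 49.8 ± 0.0259 CPM and 127 ± 4.59 CPM in the same lines. Gene by gene, the nearest were IFI6 for ISG15 (0.16), TNFSF10 for UBA7 (0.02), LIPA for UBE2L6 (0.08), PARP14 for HERC5 (0.07), IFITM1 for HERC6 (0.14) and PARP9 for USP18 (0.09). These distances rest on 6 group means from the same 18 libraries and are given as a description.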

How the data were processed

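Poly(A) RNA of 18 THP-1 libraries was sequenced on a NextSeq 500 after NEBNext Ultra II library preparation, per the labels' protocols. The authors deposited RPKM per gene for each library; the submitters' processing notes name STAR 2.7.0c, SAMtools 1.9, DESeq2 and the build hg38, without a role for each. How reads were counted, with which strand setting and gene models, is not given in the sources used here. Deposited RPKM times the gene's span in kb gave CPM, and CPM times the library total gave whole reads within 0.001 reads for 100% of values. Each library was placed by its title (0 unassigned), and 0 pairs of libraries were identical.

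Here limma 3.58.1 (R 4.3.3) was fitted with a trend to log2(CPM + 0.5), separately to each experiment, with the line as the only term. A gene was tested where 4 or more libraries of the first experiment, or 2 or more of the second, reached 1 CPM, and p was adjusted by Benjamini-Hochberg over all genes. The log2 scale understates changes of low genes. The script was tested on simulated data. Library depth limits the precision of the lowest members, HERC5, HERC6 and USP18, in the first experiment.

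Same-numbered libraries of the first experiment deviated together from their group means (correlations 0.484 to 0.908 over 12 pairs). The main fit and its p-values do not pair them, and the replicate block is an alternative fit that does. In the second experiment same-numbered libraries did not deviate together (-0.336 to 0.104). Differently numbered libraries within 1 and 2 or within 3 and 4 correlated too (0.235 to 0.819), and in 15 of 24 cases a library correlated best with its own number in another line, so the number is hard to tell from that split. Alternatives were other pseudocounts, filters, scalings and weights, a replicate block, the library pair and leaving out each library.

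The members and lists were chosen with earlier results of these data known. Named were the 6 members, PHF8, the list gene with the smallest p in each direction, and the genes with the most similar profiles. FCN1 and the 3 other-lineage markers named come from the marker lists. A gene of the signal list, also left out of the profile comparison, and a lineage marker are not reported here, and list counts, medians and sums were computed without them.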

Additional observations from a re-analysis of the deposited data

Results flagged for a closer look

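For 3 of the 6 genes the difference between lines of the first experiment was not the same in libraries 1 and 2 as in libraries 3 and 4, by a limma interaction test adjusted over all 13683 genes. For UBA7, PHF8 against wt was 0.48 in libraries 1 and 2 and -0.49 in libraries 3 and 4, a difference of -0.97 (adjusted p = 0.0010). For UBE2L6 it was 0.37 and -0.36, a difference of -0.74 (0.00081). This test called 30.5% of all genes for that comparison, so 2 of 6 members is near the share over all genes. For ISG15, PHF8 against F279S was -0.80 and -0.04, a difference of 0.76 (0.0053), and for UBA7 it was 0.21 and -0.40, a difference of -0.61 (0.018), where 21.8% of all genes were called. For F279S against wt 0 of the 6 genes and 0.899% of all genes were called. No library of the first experiment stood apart from the other 3 of its group for any member by Dixon's ratio at its 95% critical value. That ratio looks for a single library apart, so it cannot show a split into pairs such as that of ISG15 in F279S.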

How the results depend on the processing

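Among the ER lines, the direction and call of every member held under every alternative run, except that UBA7 in ERPHF8 against ERAA, not called in any, ranged from -0.060 to 0.031 when 1 library was left out. The count of members called was 6, 5 and 6 throughout, also with a replicate block (limma, 65.6, 49.9 and 49.2% of all genes called) and, chosen after seeing the data, with crossed replicate numbers for ERPHF8 against ERAA (5 of 6, 7784 genes in all). Counts over all genes fell from 7436 to 4863 without ERPHF8 library 2 in ERPHF8 against ERAA. In ERDD against ERPHF8 they fell from 7305 to 4533, 4306 and 4464 without ERDD library 1, ERDD library 2 or ERPHF8 library 2.

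In the first experiment the counts of members called moved. For PHF8 against wt (1 called) they were 0 with a filter of 5 CPM, 2 with upper-quartile scaling, 2 with the replicate block, 2 with the library pair as a factor (40.9% of all genes called), 4 in libraries 1 and 2 only (all higher; 51.4%) and 4 in libraries 3 and 4 only (2 higher, 2 lower; 42.1%). That filter leaves 3 members to test, and HERC5, HERC6 and USP18 have no value there. For F279S against wt (0 called) libraries 1 and 2 alone gave 4 (14.2%). For PHF8 against F279S (1 called) the count was 0 with a pseudocount of 0.1, without a filter, with the 5 CPM filter, with median-of-ratios scaling and with pairs averaged, the last chosen after seeing the data. It was 2 with the replicate block, 2 with the pair as a factor (40.7% of all genes), 3 in libraries 1 and 2 (53.8%), 2 in libraries 3 and 4 (35.2%), and 0 to 1 when 1 library was left out. The replicate block changed the call of USP18 in PHF8 against wt and of ISG15 in PHF8 against F279S and no other member's.

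Estimates near 0 changed sign. In PHF8 against wt, leaving out 1 library gave -0.10 to 0.0081 for ISG15, -0.15 to 0.18 for UBA7 and -0.11 to 0.12 for UBE2L6. UBA7 was 0.012 with upper-quartile scaling and 0.48 in libraries 1 and 2, and UBE2L6 was -0.012 with median-of-ratios scaling and -0.032 with voom weights. Libraries 3 and 4 gave 0.086 for ISG15, -0.36 for UBE2L6 and -0.085 for HERC5. In F279S against wt, libraries 3 and 4 gave -0.084 for UBA7, -0.11 for UBE2L6 and -0.029 for HERC5, and leaving out 1 library gave -0.052 to 0.28 for UBA7. In PHF8 against F279S, UBA7 was 0.21 in libraries 1 and 2 and -0.18 to 0.011 with 1 library left out, and USP18 was -0.11 and -0.010 to 0.13. The cause was not tested. Direction and call were kept by 300 of 351 alternative values for wt, PHF8 and F279S and by 221 of 222 for the ER lines. Of the values for wt, PHF8 and F279S, 25 changed sign, and among the rest 16 gained and 10 lost the call. Values that changed sign were counted only as such, also where they were called. Those called included UBA7 in libraries 1 and 2 (0.48 for PHF8 against wt, 0.21 for PHF8 against F279S). UBE2L6 in libraries 3 and 4 (-0.36 for PHF8 against wt) was also called.

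Counts over all genes for PHF8 against wt, F279S against wt and PHF8 against F279S (2874, 2 and 2750) were 5670, 298 and 5620 with the block and 5595, 298 and 5565 with the pair as a factor. They were 7029, 1943 and 7366 in libraries 1 and 2, 5765, 12 and 4821 in libraries 3 and 4, and 1775, 1 and 1594 with pairs averaged. Depth limits the lowest values: HERC6 in wt rested on 34 to 89 reads per library.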
